A study of Homo sapiens with 4 samples.

Results

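A set of 6 genes of the interferon response and of antigen presentation were followed across 4 prostate cancer cell cultures: SAMD9, IFI44, IFITM2, ISG15, B2M and TAPBP. They were taken by name, and every probe annotated to them was read: 11 probes of 37934, standing for 6 of the 14006 genes with a named probe. The names had been chosen by the intensity differences between these same 4 arrays, so the levels and differences of the 6 genes are a description and carry no test. Total RNA of each culture was hybridised to 1 Affymetrix whole-transcript array, and the values are intensities on a linear scale. Each group is a single culture with no replicate, so no difference below has an error, and the number of arrays limits the precision.

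PC3-L is labelled as PC3, a bone metastasis line that grows without androgen, low for the laminin-binding O-glycan of alpha-dystroglycan and high in motility and invasion. PC3-H is labelled as PC3 that is high for the glycan and low in motility and invasion. Both were isolated from PC3 cells with the glycan antibody IIH6C4. LNCaP-AI is labelled as a derivative of LNCaP, androgen-independent after culture in charcoal-stripped serum, low for the glycan and high in motility and invasion. LNCaP, a lymph node metastasis line that depends on androgen, is labelled high for the glycan and low in motility and invasion. All were grown in RPMI1640 with fetal bovine serum, and no label names treatment with an interferon. The labels are not uniform. The free-text descriptions give the PC3 cultures the opposite glycan levels, under which the sign of each PC3 difference below would turn, and they mention medium conditioned by perineural cells for LNCaP-AI. Titles and source names were followed here.

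Line markers went against 1 label. The summed intensity of 4 measured LNCaP markers of 7 listed (KLK3, KLK2, FOLH1 and SPDEF) was 212 on the array labelled LNCaP-AI, against 3613 in LNCaP, and it was 187 in PC3-L and 435 in PC3-H. The prostate-specific antigen gene KLK3 alone was 61.2 on the array labelled LNCaP-AI, against 1781 in LNCaP. The sum of all 6 listed PC3 markers was 3592 on the array labelled LNCaP-AI, against 242 in LNCaP, and it was 4089 in PC3-L and 1606 in PC3-H. Among these, the chemokine gene CXCL8 lay nearer to LNCaP, at 46.9 on the array labelled LNCaP-AI against 22.3 in LNCaP, where PC3-L had 497 and PC3-H 302. The array is therefore called the array labelled LNCaP-AI, and the 6 genes, the list counts and most list genes past 2-fold on it are also given with PC3-L in its place. Of 12 leukocyte markers 5 were measured, and without the lysosomal gene CD68 their sum stayed between 174 and 191 on the 4 arrays. On every array 2 of the 5 lay under the array median. The sum of 2 measured fibroblast markers of 7 lay between 67.3 and 76.1, and that of 4 endothelial markers of 6 between 170.5 and 198. CD68, which tumour cells also express, was 630 in PC3-L against 289.5 in PC3-H, and 553 on the array labelled LNCaP-AI against 102 in LNCaP. PTPRC and CD3E, which define leukocytes, had no named probe and are not analysed here. The part of CD68-bearing cells in the results below was not tested. In a bulk sample, fewer cells that express a gene and less RNA per cell cannot be told apart.

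Interferons bind receptors on the cell surface, which activate the kinases JAK1, TYK2 and JAK2 and the STAT transcription factors. Type I and III interferons act through a complex with IRF9 that binds the interferon-stimulated response element (ISRE), and interferon gamma acts mainly at the gamma-activated sequence (GAS). The products include antiviral effectors and the machinery that loads peptides on MHC class I for display to CD8+ T cells. Tumour cells can hold part of this programme on without added interferon, and prostate cancers are known for low MHC class I display.

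The promoters of SAMD9, IFI44, ISG15, B2M and TAPBP are shown because all 5 carry an ISRE match upstream of the start, while their differences between the arrays were not alike. These 5 of the 6 genes matched the RefSeq promoter table (GRCh38.p14), and IFITM2 did not. The ISRE motif searched was TTTC, any 2 bases and TTTC, or on the other strand GAAA, any 2 bases and GAAA. Each line gives 100 bases upstream of the annotated start, 5′ to 3′ on the gene's strand, with the matched bases in capitals.
SAMD9 (chr7:93118061-93118160, minus strand): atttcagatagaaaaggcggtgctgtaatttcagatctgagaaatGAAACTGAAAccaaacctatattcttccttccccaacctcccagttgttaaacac
IFI44 (chr1:78649689-78649788, plus strand): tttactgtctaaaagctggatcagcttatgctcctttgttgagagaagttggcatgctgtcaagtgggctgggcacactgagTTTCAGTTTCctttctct
ISG15 (chr1:1013345-1013444, plus strand): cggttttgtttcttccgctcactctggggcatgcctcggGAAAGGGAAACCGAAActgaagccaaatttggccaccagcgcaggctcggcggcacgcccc
B2M (chr15:44711334-44711433, plus strand): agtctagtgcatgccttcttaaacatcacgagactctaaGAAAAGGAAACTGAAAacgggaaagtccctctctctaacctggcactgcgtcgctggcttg
TAPBP (chr6:33314079-33314178, minus strand): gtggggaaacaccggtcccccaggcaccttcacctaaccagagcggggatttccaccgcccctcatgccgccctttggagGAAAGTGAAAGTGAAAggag
The match began 136 bases upstream of the start in SAMD9 and 18 bases upstream in IFI44, whose promoter table also lists a second start with the match 60 bases upstream. ISG15 held 2 overlapping matches beginning 113 and 107 bases upstream, B2M 2 overlapping matches at 144 and 138, and TAPBP 2 overlapping matches at 20 and 14. In the 250 bases before the start, 3.02% of all 35116 promoters in the table held the motif, and 3.33% of the 10393 measured genes with an entry did. A GAS match (TTCNNNGAA, the same letters on both strands) was found in 0 of these 5 promoters, against 6.57% of all promoters, which says only that these letters are not in these windows. Of the relatives described below, IFI44L, IFITM1 and IFITM3 held an ISRE match and SAMD9L did not. Among the listed interferon effectors 18 of 35 with an entry held one. A match is a description of the sequence and shows no binding.

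SAMD9, a cytoplasmic protein that restricts poxviruses and restrains growth, was high on both arrays labelled low for the glycan. Its intensity was 271 in PC3-L against 83.9 in PC3-H, and 236 on the array labelled LNCaP-AI against 44.2 in LNCaP. The log2 difference, on the log2(intensity + 1) scale used throughout, was 1.68 in the PC3 pair, PC3-L minus PC3-H (3.20-fold higher in PC3-L). It was 2.39 in the LNCaP pair, the array labelled LNCaP-AI minus LNCaP (5.24-fold). In the order PC3-L, LNCaP-AI, PC3-H, LNCaP, 1 step exceeded 2-fold, the one between the array labelled LNCaP-AI and PC3-H. The LNCaP value lay close to that array's median of 40.8 over all probes.

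IFI44, an interferon-induced cytoplasmic protein, was high on the same arrays as SAMD9, with smaller differences. It was 136 in PC3-L against 59.7 in PC3-H, a log2 difference of 1.17, and 144 on the array labelled LNCaP-AI against 45.0 in LNCaP, a log2 difference of 1.65. The folds were 2.25 and 3.14. The array labelled LNCaP-AI and PC3-L lay within 1.06-fold of each other, and PC3-H and LNCaP within 1.32-fold.

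IFITM2, a membrane protein that blocks virus entry from endosomes, ran the opposite way. It was 46.5 in PC3-L against 387 in PC3-H, and 59.0 on the array labelled LNCaP-AI against 168 in LNCaP. The log2 difference was −3.03 in the PC3 pair (8.17-fold lower in PC3-L), at rank 27 from the lowest of 11126 genes. It was −1.49 in the LNCaP pair (2.81-fold lower on the array labelled LNCaP-AI), at rank 234 from the lowest of 11135. Thus the arrays on which SAMD9 was high were those on which IFITM2 was low, in each pair. The PC3-L value lay near that array's median of 39.8, where a fold can be understated. IFITM1, IFITM2 and IFITM3 are close copies of each other, and whether the probes separate them was not tested.

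ISG15, a ubiquitin-like protein that is joined to other proteins and also secreted, was high on 1 array. It was 105 in PC3-L against 254 in PC3-H, a log2 difference of −1.26 (2.40-fold lower in PC3-L). In the LNCaP pair it was 129 on the array labelled LNCaP-AI against 109.8 in LNCaP, a log2 difference of 0.23, within 2-fold. The 3 arrays other than PC3-H lay within 105 and 129.

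**Figure D1:**
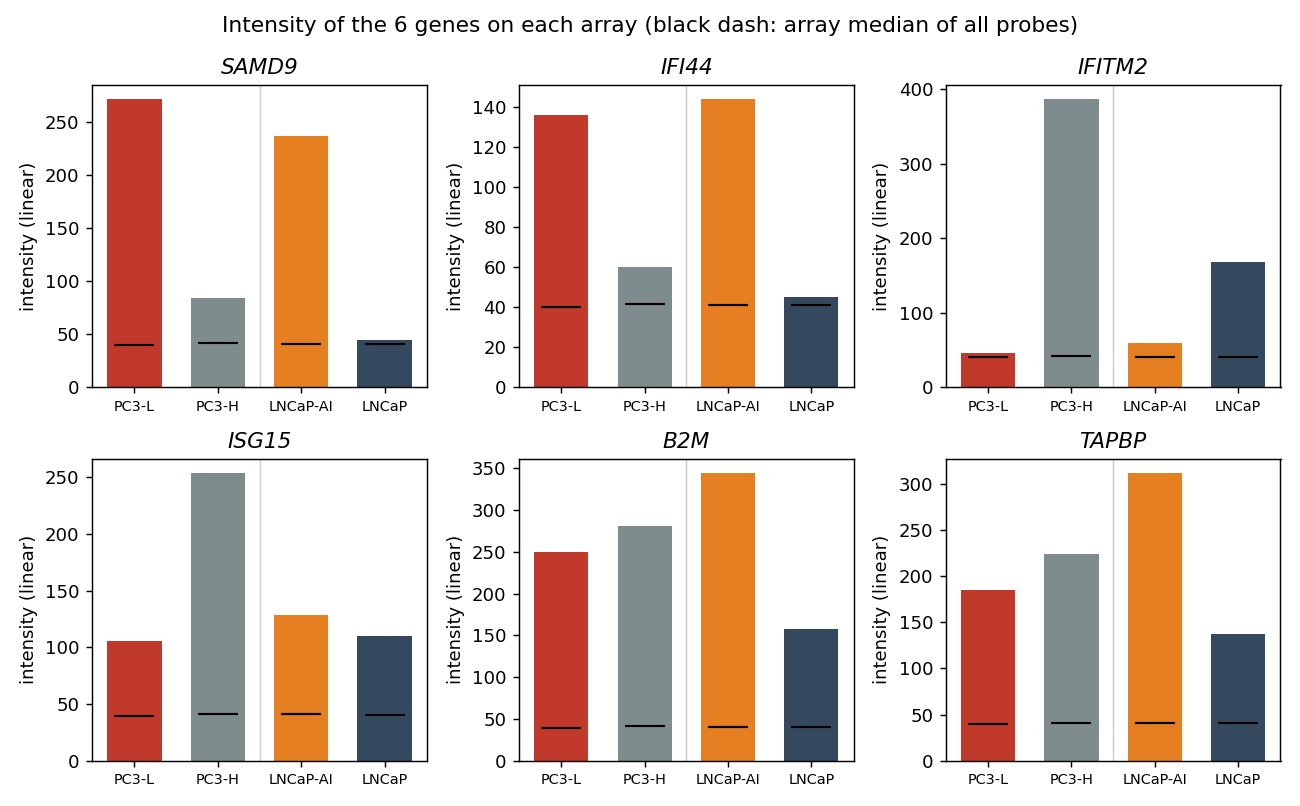
Intensity (linear axis from 0) of the 6 genes on the PC3-L, PC3-H, LNCaP-AI and LNCaP arrays; each bar is 1 array, for the probe with the highest mean, and black dashes mark the median of all probes on that array. SAMD9 and IFI44 were high in PC3-L and in the culture labelled LNCaP-AI, IFITM2 was high in PC3-H (387) and LNCaP (168), and ISG15 was high in PC3-H only (254).

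B2M, the light chain shared by all MHC class I molecules, was lowest in LNCaP. Its brighter probe read 249.99 in PC3-L against 280.3 in PC3-H, a log2 difference of −0.16. It read 344 on the array labelled LNCaP-AI against 158 in LNCaP, a log2 difference of 1.12 (2.17-fold). The second probe read 71.0 in PC3-L against 71.8 in PC3-H, and 80.5 on the array labelled LNCaP-AI against 46.8 in LNCaP. With the mean over both probes the LNCaP difference was 0.95, within 2-fold.

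TAPBP, which encodes tapasin, the chaperone that holds MHC class I at the peptide transporter during loading, kept the same order of arrays as B2M. It was 185 in PC3-L against 224 in PC3-H, a log2 difference of −0.27. It was 312 on the array labelled LNCaP-AI against 137 in LNCaP, a log2 difference of 1.18 (2.26-fold). The 5 TAPBP probes spanned 179.7 to 185 in PC3-L and 209 to 224 in PC3-H. They spanned 279.6 to 312 on the array labelled LNCaP-AI and 133 to 137 in LNCaP. TAPBP lies in the MHC region of chromosome 6. Probes of 1 gene on 1 array share their RNA and are no replicates.

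**Figure D2:**
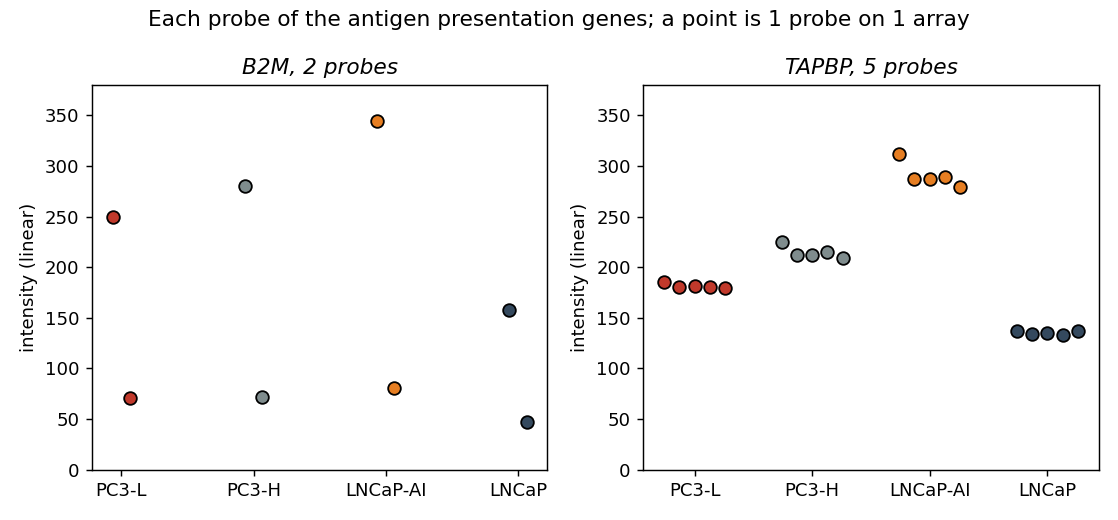
Each point is 1 probe of B2M (2 probes) or TAPBP (5 probes) on 1 array, in intensity on a linear axis from 0. For TAPBP the 5 probes on each array lie close together, lowest in LNCaP (133 to 137) and highest on the array labelled LNCaP-AI (279.6 to 312); the 2 B2M probes differ in level and share the low LNCaP value.

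In the PC3 pair 2 of the 6 genes were thus 2-fold or more higher in PC3-L (SAMD9 and IFI44) and 2 lower (IFITM2 and ISG15). Of 11126 genes past a filter on low values, which asked that the higher value of the pair reach the 40th percentile of its array, 8.58% were 2-fold or more higher in PC3-L and 3.77% lower, 955 and 419 genes. That split was 643 and 498 once a trend with gene length was removed, and 774 and 527 once a trend with intensity was removed. In the LNCaP pair 4 of 6 were higher on the array labelled LNCaP-AI (SAMD9, IFI44, TAPBP and B2M), and IFITM2 was lower. Of 11135 genes, 5.45% were higher and 5.13% lower in that pair. SAMD9 and IFI44 were 2-fold or more higher in each pair, as were 2.20% of the 10755 genes past the filter in both. IFITM2 was lower in each, as were 1.06% of those genes. These contrasts chose the 6 genes, and nothing is read from their counts.

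Between the arrays labelled low for the glycan, 0 of the 6 genes differed by 2-fold, where 2.79% of 10942 genes did, 0.832% higher on the array labelled LNCaP-AI and 1.96% lower. The log2 difference of the array labelled LNCaP-AI minus PC3-L lay between −0.20 (SAMD9) and 0.75 (TAPBP). With PC3-L in place of the array labelled LNCaP-AI, the log2 difference against LNCaP was 2.59 for SAMD9, 1.57 for IFI44 and −1.83 for IFITM2. For B2M it was 0.66 and for TAPBP 0.43, both then within 2-fold, and for ISG15 −0.059. Between the arrays labelled high for the glycan, IFITM2 and ISG15 were both 2.30-fold lower in LNCaP than in PC3-H, where 4.49% of 11156 genes were 2-fold or more lower, 5.46% higher and 9.95% either. These comparisons share arrays with the pairs above.

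**Figure D3:**
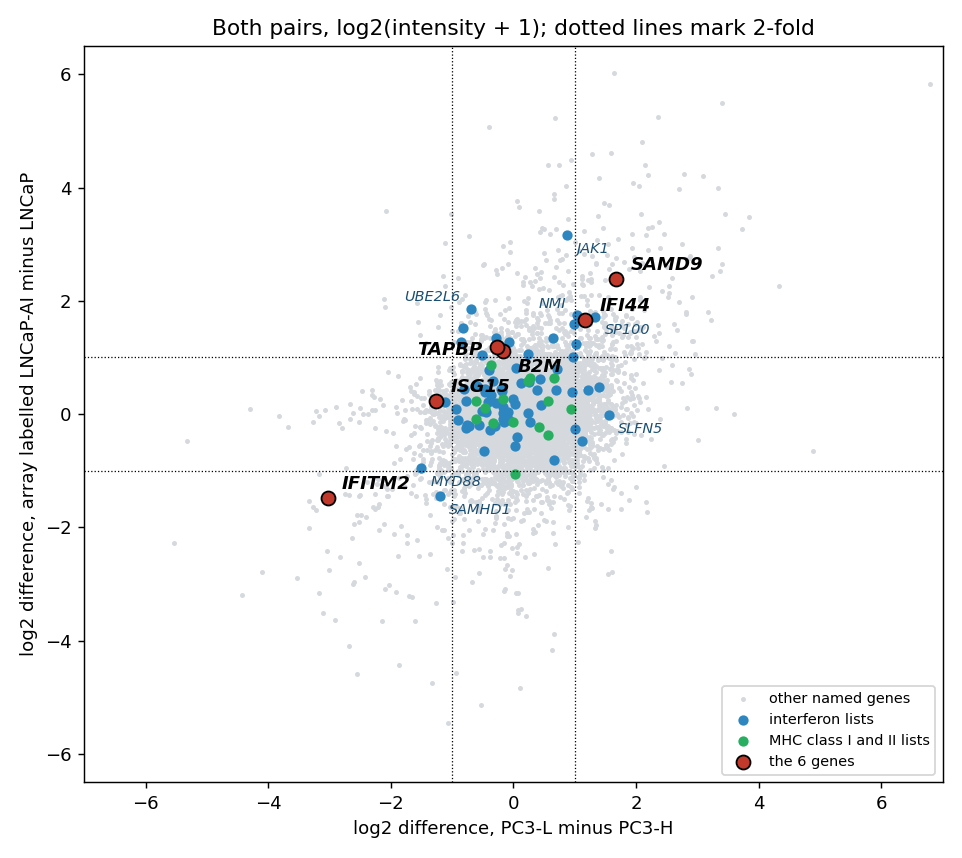
Log2 difference in the PC3 pair (horizontal) against that in the LNCaP pair (vertical) for genes past the filter in both; grey points are other named genes, blue the interferon lists, green the MHC lists and red the 6 genes, with dotted lines at 2-fold. SAMD9 (1.68 and 2.39) and IFITM2 (−3.03 and −1.49) lie in opposite corners, and B2M and TAPBP pass 2-fold on the vertical axis alone.

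The nearest relatives of SAMD9, IFI44 and IFITM2 had smaller differences in both pairs, some of opposite sign. SAMD9L, the neighbouring paralog of SAMD9 on chromosome 7, was 30.8 in PC3-L against 40.8 in PC3-H, and 57.4 on the array labelled LNCaP-AI against 33.0 in LNCaP. Its log2 differences were −0.40 and 0.78. IFI44L, next to IFI44 on chromosome 1, was 24.6 in PC3-L against 45.3 in PC3-H, and 23.0 on the array labelled LNCaP-AI against 23.8 in LNCaP. Its difference in the PC3 pair was −0.86, opposite in sign to that of IFI44, and in the LNCaP pair neither value reached the filter. In PC3-L both SAMD9L and IFI44L lay under the 40th percentile of 33.6, and in LNCaP SAMD9L lay under that of 34.2. These signs thus rest on low values.

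IFITM2 lies between IFITM5 and IFITM1 on chromosome 11, with IFITM3 beyond IFITM1. IFITM1, which acts mainly at the cell surface, was 58.3 in PC3-L against 109.5 in PC3-H (log2 difference −0.90), and 64.8 on the array labelled LNCaP-AI against 70.0 in LNCaP (−0.11). IFITM3, an endosomal virus restriction factor, was 68.4 in PC3-L against 97.6 in PC3-H (−0.51). In the LNCaP pair its level of 95.2 on the array labelled LNCaP-AI stood against 45.8 in LNCaP (1.04), opposite in sign to IFITM2. IFITM10 had log2 differences of −0.16 and 0.12.

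**Figure D4:**
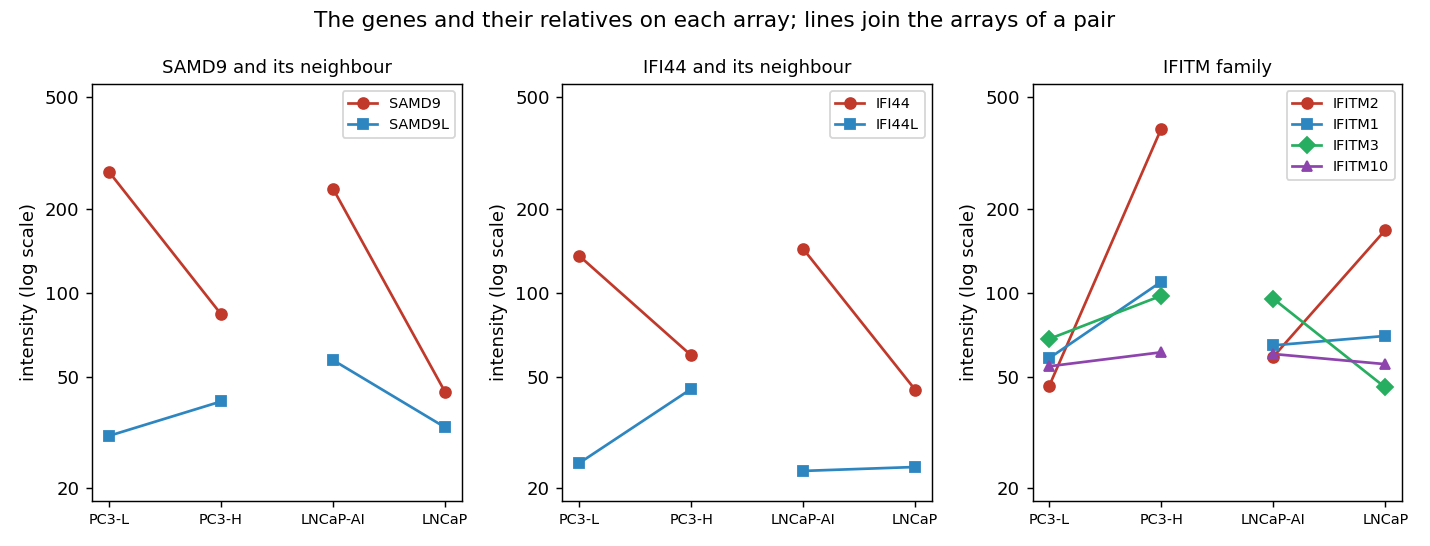
Intensity (log axis) of SAMD9 with SAMD9L, IFI44 with IFI44L, and 4 IFITM genes on each array; a point is 1 array, and a line joins the arrays of a pair. SAMD9L and IFI44L stay between 23.0 and 57.4 on every array, and IFITM2 has the steepest lines of its family in both pairs.

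Among 13 listed receptors, JAK kinases and STATs, 7 were measured. In the PC3 pair JAK2 (121 in PC3-L against 45.5 in PC3-H) and STAT3 (323 against 161) were 2-fold or more higher and 0 were lower. All genes gave 8.58% higher and 3.77% lower. STAT3 sat at the threshold, with a log2 difference of 1.00. JAK1 alone was past 2-fold in the LNCaP pair, where 10.6% of all genes were. JAK1, the kinase used by all interferon receptors, was 376 on the array labelled LNCaP-AI against 41.1 in LNCaP, 8.94-fold higher, and it was 559 in PC3-L against 304 in PC3-H. With PC3-L in place of the array labelled LNCaP-AI, the log2 difference of JAK1 was 3.73, where it had been 3.16. LNCaP cells have been described as lacking JAK1. The gamma receptor genes IFNGR1 (−0.14) and IFNGR2 (0.58), the kinase gene TYK2 (0.44) and IRF9 (0.50) were within 2-fold in the LNCaP pair. STAT2, IFNAR1 and all 22 listed interferon genes had no named probe and are not analysed here.

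Of the interferon regulatory factors, 6 passed the filter. In the PC3 pair IRF2, which can repress the ISRE, was 217 in PC3-L against 93.0 in PC3-H, and IRF7, an amplifier of type I interferon synthesis, was 45.4 in PC3-L against 99.3 in PC3-H. In the LNCaP pair IRF1, an activator of MHC class I genes, was 95.5 on the array labelled LNCaP-AI against 38.9 in LNCaP. With PC3-L (43.1) in its place, IRF1 was within 2-fold of LNCaP, while IRF2 was past it, at a log2 difference of 1.06. All genes gave 8.58% higher and 3.77% lower in the PC3 pair, and 5.45% and 5.13% in the LNCaP pair. With PC3-L in place 7.24% were higher and 4.51% lower.

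Of 22 sensors and adaptors of foreign nucleic acid, 15 passed the filter in each pair. In PC3-L the kinase TBK1 (153 against 69.9 in PC3-H) and the helicase DDX60L (122 against 60.03) were higher, and the Toll-like receptor adaptor MYD88 (43.6 against 125) was lower. The shares over all genes were 8.58% higher and 3.77% lower. On the array labelled LNCaP-AI, DDX60L (73.0 against 30.2 in LNCaP) and the DNA sensor CGAS (54.4 against 25.7) were higher and 0 were lower. All genes gave 5.45% higher and 5.13% lower there. In LNCaP both DDX60L and CGAS lay under the 40th percentile of 34.2. With a pseudocount of 16 they were within 2-fold, at 0.95 (DDX60L) and 0.76 (CGAS). With PC3-L in place of the array labelled LNCaP-AI, DDX60L and CGAS were farther apart, at log2 differences of 1.98 and 2.02. RIGI (1.05) and EIF2AK2 (1.03) were then past 2-fold as well, 4 sensors in all, beside 7.24% of all genes higher. Of 7 negative regulators past the filter, among them SOCS1, SOCS3 and USP18, 0 were past 2-fold in either pair.

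Antiviral and other effectors were the longest list, with 45 of 85 measured beside the 6 genes. In the PC3 pair 3 of 36 past the filter were higher and 3 lower, beside 8.58% and 3.77% of all genes. SLFN5 (410 in PC3-L against 138 in PC3-H), the nuclear body gene SP100 (159 against 63.0) and the STAT partner NMI (93.0 against 44.9) were the higher ones. SAMHD1, which degrades deoxynucleotides (112 against 259), LAMP3 (31.9 against 71.9) and the virus tether BST2 (23.0 against 49.8) were lower in PC3-L. In PC3-L both LAMP3 and BST2 lay under the 40th percentile of 33.6, and they passed the filter through PC3-H alone. With a pseudocount of 16, LAMP3 (−0.88), BST2 (−0.75) and NMI (0.84) were within 2-fold in the PC3 pair. With the gene length trend removed, BST2 (−0.95) and SP100 (0.995) were.

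Of 34 effectors past the filter in the LNCaP pair, 10 were higher on the array labelled LNCaP-AI and 1 was lower, beside 5.45% and 5.13% of all genes. The largest were UBE2L6 (205 against 55.7 in LNCaP), NMI (104 against 30.5) and SP100 (145 against 43.7). SLFN11, GBP3, PLSCR1, PML, IFI35, IFITM3 and SP140L were the others, with log2 differences between 1.01 (SP140L) and 1.58 (SLFN11). SAMHD1 was lower there too, at 93.6 against 258 in LNCaP. With PC3-L in place of that array 6 effectors were higher, SLFN5 (1.33) among them, and UBE2L6, GBP3, PML, IFI35 and IFITM3 were within 2-fold. SAMHD1 was then −1.20, and 7.24% of all genes were higher. In LNCaP, NMI (30.5), GBP3 (30.3), SP140L (29.7) and PLSCR1 (25.4) lay under the 40th percentile of 34.2. They passed the filter through the other array alone. With a pseudocount of 16, PLSCR1 (0.98), IFITM3 (0.85) and SP140L (0.75) were within 2-fold in the LNCaP pair.

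UBE2L6, counted among the effectors above, is the conjugating enzyme for ISG15, and in the LNCaP pair it was past 2-fold where ISG15 was not. It was 64.1 in PC3-L against 104 in PC3-H (log2 difference −0.69), and its LNCaP difference was 1.86. Of the 6 measured genes of ISG15 conjugation it alone was past 2-fold in the LNCaP pair, and 0 were in the PC3 pair. The shares over all genes were 10.6% and 12.3%. The activating enzyme UBA7 had log2 differences of 0.13 and 0.54, the ligase HERC5 0.02 and −0.57, and USP18, which removes ISG15, −0.49 and −0.64.

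Over all interferon lists without the 6 genes, 8 of 71 genes past the filter were higher in PC3-L and 5 lower, with a median log2 difference of −0.17 where all genes had −0.020. In the LNCaP pair 14 of 69 were higher and 1 lower, with a median of 0.27 where all genes had 0.0048. Past 2-fold in either direction were 18.3% of the listed genes in the PC3 pair, beside 12.3% of all genes, and 21.7% in the LNCaP pair, beside 10.6% of all genes. The PC3 excess was not stable: with a pseudocount of 16 it was 4 higher and 2 lower of 71, where all 11126 genes gave 709 and 291, and with the gene length trend removed 3 and 4. With PC3-L in place of the array labelled LNCaP-AI the counts were 12 and 1 and the median was 0.14, where 7.24% of 11111 genes were higher in PC3-L than in LNCaP and 4.51% lower. DDX60L, SP100 and NMI were higher in each pair and SAMHD1 lower in each. These were 3 and 1 of 68 genes (4.41% and 1.47%), beside 2.20% and 1.06% of all genes. The higher count was not stable. With a pseudocount of 16, DDX60L (0.86) and NMI (0.84) were within 2-fold in the PC3 pair, and DDX60L (0.95) in the LNCaP pair. With the gene length trend removed, DDX60L (0.69) and SP100 (0.995) were so in the PC3 pair.

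Of the 31 other genes listed for MHC class I presentation, 14 were measured. TAP1, TAP2, PSMB8, PSMB9 and NLRC5 had no named probe and are not analysed here, so TAPBP stands without the transporter it binds. In the PC3 pair 0 of 13 past the filter were 2-fold apart. Among all genes 12.3% were so in that pair, and 10.6% in the LNCaP pair. In the LNCaP pair ULBP1, a ligand of the natural killer cell receptor NKG2D, was 22.5 on the array labelled LNCaP-AI against 50.9 in LNCaP. The other 13 were within 2-fold. The lower ULBP1 value lay under the 40th percentile of 34.5, and with a pseudocount of 16 the difference was −0.80, within 2-fold. With PC3-L in place of the array labelled LNCaP-AI, ULBP1 was −1.14, again on a low value of 22.5. MICA (1.00) and MICB (1.09), also NKG2D ligands, were then past 2-fold. The tapasin-like gene TAPBPL was 45.0 in PC3-L against 30.1 in PC3-H (0.56), and 42.5 on the array labelled LNCaP-AI against 54.9 in LNCaP (−0.36), opposite in sign to TAPBP in each pair. Of the class II list 3 of 17 genes were measured, all of them proteases, and the 1 past 2-fold was LGMN (101 on the array labelled LNCaP-AI against 212 in LNCaP), which was −0.66 with PC3-L in place. Of 4 checkpoint ligands past the filter, PDCD1LG2 was 66.5 on the array labelled LNCaP-AI against 28.1 in LNCaP, and the other 3 were within 2-fold in both pairs. PDCD1LG2 was 1.78 with PC3-L in place. Its LNCaP value lay under the 40th percentile of 34.2, so it passed the filter through the other array alone. With a pseudocount of 16 its difference in the LNCaP pair was 0.90, within 2-fold.

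**Figure D5:**
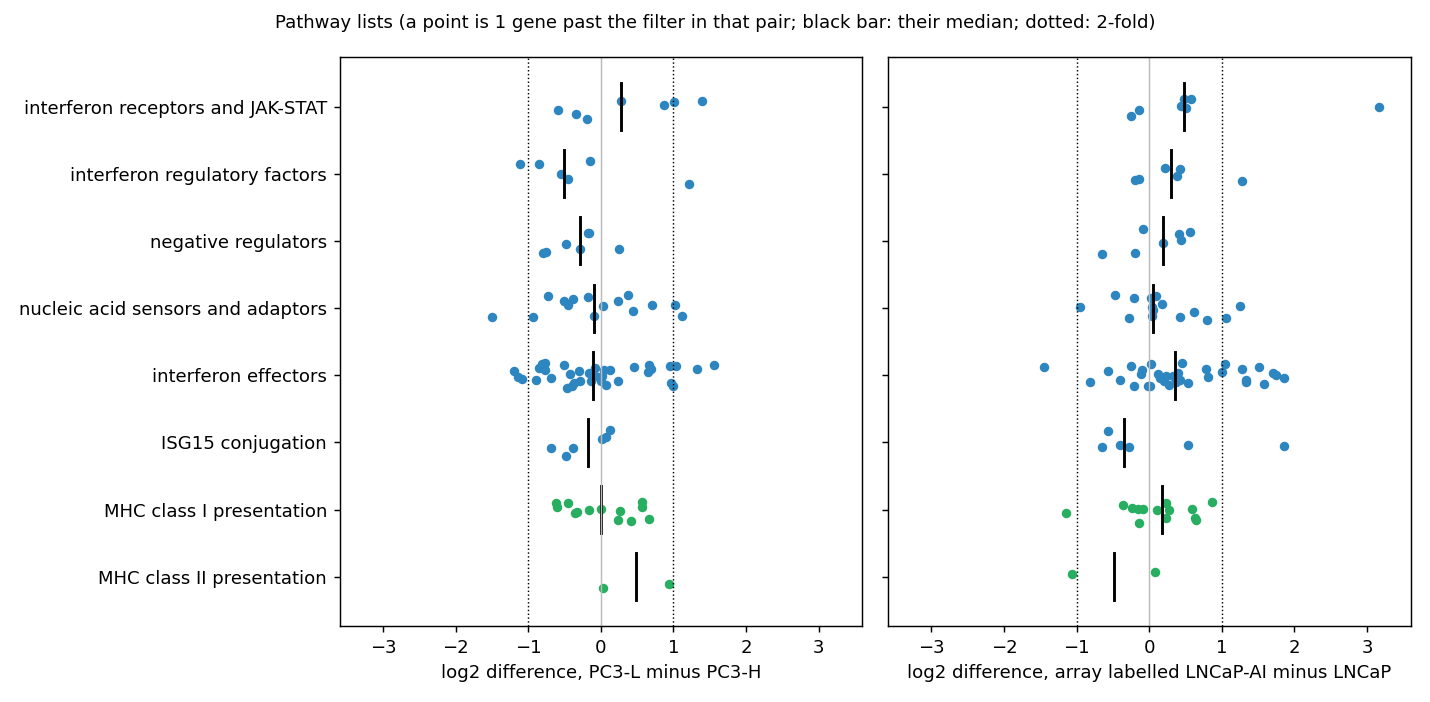
Log2 difference of each listed gene past the filter of its pair, PC3 pair on the left and LNCaP pair on the right; a point is 1 gene (blue for interferon lists, green for MHC lists), black bars are list medians and dotted lines mark 2-fold. The 6 genes themselves are not plotted. JAK1 (3.16) is the point farthest to the right in the LNCaP pair.

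Across all named genes, the profiles most like those of SAMD9 and IFITM2 were found by the Euclidean distance between log2 profiles centred on their mean over the 4 arrays. It was taken against 2669 genes with a log2 range of at least 1. FOXF2, a forkhead transcription factor gene, lay nearest to SAMD9 at a distance of 0.15, followed by the tetraspanin-like membrane gene TM4SF1 (0.19) and the growth factor signalling antagonist SPRY2 (0.30). LAD1, a basement membrane anchor gene, lay nearest to IFITM2 at 0.25, followed by the kinase gene STK26 (0.26) and the epithelial membrane protease gene ST14 (0.31). ST14 was 45.6 in PC3-L against 449 in PC3-H, and 50.9 on the array labelled LNCaP-AI against 160 in LNCaP. No listed interferon gene was among these nearest genes. Only 3 of 2669 genes were taken for each, so nothing is read from that absence. With 4 arrays such likeness is a description only.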

How the data were processed

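Per the file's values and the labels' protocols, the deposited table holds the authors' intensity values on a linear scale for 4 Affymetrix whole-transcript arrays, with array medians between 39.8 and 41.2. RNA was extracted with ISOGEN II and labelled with the WT Terminal Labeling Kit, per the labels. The design text names GeneSpring GX 12.6. Summarisation, background correction and normalization are not given in the sources used here, and 0 columns were left unmapped.

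Of 37934 probes 14952 had 1 gene symbol in the platform annotation and 22982 none. The probe with the highest mean stood for its gene. Log2(intensity + 1) differences were computed for genes whose higher value in the pair reached the 40th percentile of its array, and 2-fold was the threshold. A gene could thus pass through 1 array alone, with its other value low on the scale. The shares of all genes used the same filter. No p-value was computed. The code that counts 2-fold differences was checked on simulated arrays, which is no test of the counts reported. Python 3.11.15, pandas 2.3.3 and statsmodels 0.14.6 (lowess, fraction 0.3) were used.

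The 6 genes and all lists were chosen with earlier results of these data known. Named genes were the 6, measured list genes past 2-fold, their relatives and partners, and for SAMD9 and IFITM2 the 3 nearest profiles. Examples within 2-fold were named after their values were seen. Alternatives were other pseudocounts, filters, probe averaging, scalings and trend removals.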

Additional observations from a re-analysis of the deposited data

Results flagged for a closer look

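With 1 array per group the following differences between the lines were not tested. Of 89 genes of the lists and the 6 genes past the filter in both pairs, 14 were past 2-fold in at least 1 pair and had opposite signs in the PC3 and LNCaP pairs (15.7%). The same held for 713 of all 10755 genes (6.63%). Because the 6 genes were chosen by these contrasts and ISG15, B2M and TAPBP are among the 14, no excess is read from these shares. The values are the log2 difference of the LNCaP pair minus that of the PC3 pair. Among the 6 genes this was 1.49 for ISG15, 1.28 for B2M and 1.45 for TAPBP. More positive in the LNCaP pair were also UBE2L6 (2.56), GBP3 (2.33), IRF1 (2.13), PML (1.63), IFITM3 (1.55), IFI35 (1.35) and IRF7 (1.32). More negative there were TBK1 (−1.60), SLFN5 (−1.58), STAT3 (−1.26) and LGMN (−1.10). Some of the opposite signs rest on a small difference in 1 of the pairs. SLFN5 was −0.021 in the LNCaP pair, and in the PC3 pair LGMN was 0.030, IFI35 −0.076 and B2M −0.16. All 14 gaps rest on the array labelled LNCaP-AI, whose line markers go against its label. With PC3-L in its place the difference against LNCaP was 1.33 for SLFN5, 0.084 for TBK1 and −0.059 for ISG15, which then had the sign of their PC3 difference. It was 0.20 for UBE2L6, 0.15 for IRF1, 0.10 for IRF7, 0.095 for PML and −0.55 for STAT3. The differences so taken share the PC3-L array with the PC3 pair.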

How the results depend on the processing

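No paired analysis was possible because each group had 1 array. Of 108 recomputed differences of the 6 genes under the other pseudocounts, filters, probe averaging, scalings and trend removals, 107 kept their direction and their side of 2-fold. The exception was B2M in the LNCaP pair, at 0.95 with the mean over its probes, where a dimmer probe enters. Part of this agreement was fixed in advance, because a filter cannot change a difference. Nor can probe averaging change SAMD9, IFI44, IFITM2 or ISG15, which have 1 probe each. The differences ranged from 1.503 to 1.73 for SAMD9, 1.00 to 1.22 for IFI44, −3.20 to −2.69 for IFITM2 and −1.44 to −1.13 for ISG15 in the PC3 pair. In the LNCaP pair they ranged from 2.06 to 2.44 for SAMD9, 1.39 to 1.69 for IFI44, −1.51 to −1.29 for IFITM2 and 1.10 to 1.21 for TAPBP. With a pseudocount of 16 the interferon lists had 4 genes higher and 2 lower in the PC3 pair. In the LNCaP pair they had 9 higher, and the MHC lists 0 lower. All genes then gave 709 higher and 291 lower of 11126 in the PC3 pair, and 483 and 423 of 11135 in the LNCaP pair. A larger pseudocount shrinks the differences of dim genes. With the gene length trend removed, 3 interferon genes and 1 MHC gene were higher in the PC3 pair, beside 643 of all 11126 genes. The cause was not tested. The median of all genes moved to at most 0.040 under any setting. In an alternative chosen after seeing the data, PC3-L stood in for the LNCaP-AI-labelled array against LNCaP. ISG15 then turned to −0.059, B2M was 0.66 and TAPBP 0.43. The MHC lists had 2 genes higher and 1 lower, beside 7.24% and 4.51% of all genes. The cause was not tested. Values near the array medians limit how far a lower level can be measured.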
